A study of Mus musculus with 11 samples.

Results

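The genes of the cyclin-dependent kinase (CDK) inhibitors are described here in mouse germinal center (GC) and memory B cells: Cdkn1a, Cdkn1b and Cdkn1c of the CIP/KIP family and Cdkn2a, Cdkn2b, Cdkn2c and Cdkn2d of the INK4 family. They were chosen by name and found by Ensembl identifier, and all 7 are among the 48795 genes of the expression table. RNA was measured in 11 libraries from spleens of female C57BL/6 mice aged 8 to 12 weeks, taken 10 d after intravenous immunization with sheep red blood cells, a T cell-dependent antigen. The Myc_WT LZ group holds light zone (LZ) GC B cells of 4 mice with unmutated Myc (mice 1 to 4), and the Myc_VD LZ group holds LZ B cells of 4 mice that carry the V394D mutation in their own Myc gene (mice 5 to 8). The Myc_WT MBC group holds memory B cells (MBCs) of Myc_WT mice 1, 3 and 4, so those mice gave a library of each cell type. No MBCs of Myc_VD mice were analysed here. MYC with the V394D mutation still pairs with MAX and has lost its contact with MIZ1, and nothing in the methods restricts the mutation to B cells. LZ cells were gated as CD38 low, CD95 high, CXCR4 low and CD86 high and MBCs as CD38+, IgD- and CD273+, both from B220+ CD138- cells.

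CDK inhibitors hold cells out of the cell cycle. INK4 proteins bind CDK4 and CDK6 and keep D cyclins from activating them, whereas CIP/KIP proteins bind assembled cyclin-CDK complexes, above all those of CDK2, and both families thereby keep RB proteins active and E2F targets silent. MIZ1, encoded by Zbtb17, is known as an activator of several of these genes, among them Cdkn1a and Cdkn2b, and MYC bound to MIZ1 as their repressor. The study used the Myc_VD mouse to ask what is lost when MYC cannot bind MIZ1 in GC B cells, and the MBC libraries to define genes that differ between MBCs and LZ B cells.

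In LZ B cells of either genotype the family was mostly INK4 RNA, of Cdkn2c and Cdkn2d, while Cdkn1c and Cdkn2a were at or near 0 in every library. Cdkn1b stood apart from the other members: it was lowest in Myc_WT LZ, higher in each of the 4 Myc_VD LZ libraries and higher again on average in MBCs. Cdkn1a, which MIZ1 is known to activate, had a lower mean in Myc_VD LZ than in Myc_WT LZ, with overlapping libraries. No member passed the adjusted test between the genotypes, and Cdkn1b alone passed it in MBCs against Myc_WT LZ, by a narrow margin.

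Sequences are given for 2 members, Cdkn1b, the one member with an adjusted call, and Cdkn2c, the one member with a MYC-MAX motif in a window. The promoter windows of RefSeq on GRCm38.p6 run from 250 bases before to 50 bases after a transcript start, and 6 of the 7 members have at least 1 such window, with none for Cdkn1c. The 250 bases before the start of Cdkn1b, chr6:134920151-134920400 on the plus strand, hold the CCAAT and GGGCGG letters known as NF-Y and SP1 boxes, shown in capitals. The stretch of Cdkn2c, chr4:109665323-109665350 on the minus strand, holds CACGTG, the E-box that MYC-MAX binds, in capitals.
Cdkn1b: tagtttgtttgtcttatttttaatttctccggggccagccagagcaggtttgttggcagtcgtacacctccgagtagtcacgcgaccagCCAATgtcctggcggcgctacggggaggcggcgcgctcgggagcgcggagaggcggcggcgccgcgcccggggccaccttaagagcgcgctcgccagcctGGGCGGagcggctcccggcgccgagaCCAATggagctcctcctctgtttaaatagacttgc
Cdkn2c: ttgctgaataatCACGTGtgaatcgagg
CACGTG, which reads the same on both strands, was found in the second window of Cdkn2c, where its first base lies 35 bases past the start, and in no other window of a member. Of 32851 RefSeq windows, 7.15% hold it. The full Cdkn1b window holds CCAAT 3 times and GGGCGG once counting both strands, letters that 37.4% and 35.7% of all windows hold. Other members carry them too: the Cdkn2d window holds CCAAT once and GGGCGG 5 times, the Cdkn2a windows hold GGGCGG 3 times and once with CCAAT once in the latter, the Cdkn2c windows hold GGGCGG 4 times in the first and CCAAT once in the second, and GGGCGG is found 2 times in the second Cdkn1a window and once in that of Cdkn2b. GC content of the members' windows ran from 44.0% to 77.0% against a median of 52.7% over all windows, with the highest value in a Cdkn2a window and the lowest in the Cdkn2c window that holds the E-box. A motif for MIZ1 was not searched, and a match of letters is no measure of binding.

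The values are TPM, the length-scaled transcript abundances that the authors estimated with RSEM and deposited. TPM hold no depth, so no counting error can be given for any value, an entry of 0 may reflect an estimate that failed, and the error below is the spread between mice. The markers of B cells (Cd79a, Cd79b and Ms4a1) summed to 1115 TPM or more in each library, and the MBC list (Cd38, Pdcd1lg2, Ccr6, Cd80 and Nt5e) to between 15.9 and 35.2 TPM in LZ libraries against 380 to 547 TPM in MBCs. Cd38 and Ccr6 made up most of the MBC sum, at means of 238 and 178 TPM. Nt5e averaged 9.23 TPM in MBCs, below Myc_WT LZ (11.5 TPM) and above Myc_VD LZ (6.01 TPM). Cells were sorted on CD38 and on CD273, the product of Pdcd1lg2, so these genes are no independent check of identity. LZ GC markers were still high in MBCs, at 425 to 552 TPM against 746 to 930 TPM in Myc_WT LZ and 530 to 745 TPM in Myc_VD LZ. The MBC libraries of mice 1 and 3 stood apart: among 6668 genes that averaged 10 TPM or more over the LZ libraries, they listed 253 and 421 at 0, against 57 in the MBCs of mouse 4 and 34 to 69 in LZ libraries. These genes were picked as high in LZ, which by itself keeps zeros in LZ few and counts genes silent in MBCs. Over all genes, 12983 and 11527 were above 0 in the MBCs of mice 1 and 3. The MBCs of mouse 4 had 16040 above 0 and LZ libraries 13169 to 19537. The MBC library of mouse 3 also held 4298 TPM of erythroid RNA (Hbb-bs and Hba-a1 for the most part), against at most 239 TPM in any other library. Ribosomal RNA took 35.7% to 44.5% of TPM in Myc_WT LZ and 44.1% to 61.3% in Myc_VD LZ. The sample titles of Myc_WT mice 1 to 3 share a prefix, that of Myc_WT mouse 4 has another and those of all Myc_VD mice a further one, and the labels do not say what the prefix stands for, so whatever it marks cannot be told apart from genotype. In bulk samples, fewer cells that express a gene and less of its RNA per cell cannot be told apart either.

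**Figure D1:**
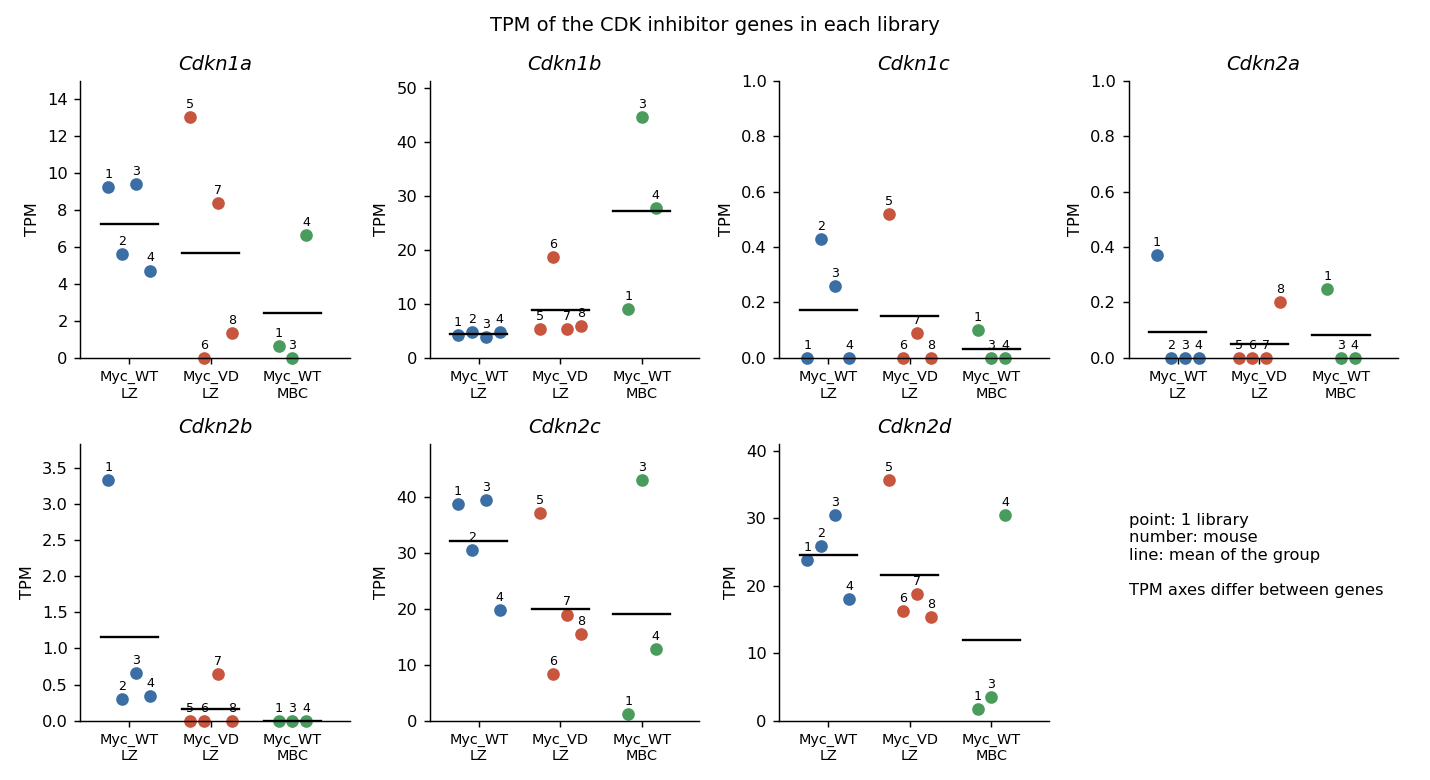
TPM of each CDK inhibitor gene (y axes, which differ between genes) in Myc_WT LZ, Myc_VD LZ and Myc_WT MBC libraries (x axis). Each point is 1 library with its mouse number and each line a group mean; Cdkn1b is the only panel in which all 4 Myc_VD LZ points lie above all 4 Myc_WT LZ points.

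Of the CIP/KIP genes, Cdkn1b (ENSMUSG00000003031, chr6:134920401-134925513, plus strand) encodes p27, the inhibitor that keeps resting lymphocytes out of S phase. Myc_WT LZ libraries lay between 3.92 and 4.78 TPM (4.26 in mouse 1, 4.7 in mouse 2, 3.92 in mouse 3 and 4.78 in mouse 4), the tightest group of any expressed member. Myc_VD LZ libraries had 5.34, 18.63, 5.33 and 5.87 TPM in mice 5 to 8. Every Myc_VD value was above every Myc_WT value, 3 of them by a small margin and mouse 6 by a wide one. MBCs had 9.13 TPM in mouse 1, 44.6 in mouse 3 and 27.76 in mouse 4, all above Myc_WT LZ and overlapping Myc_VD LZ only through mouse 6. The group means were 4.42 ± 0.401 TPM (SD, n = 4) in Myc_WT LZ, 8.79 ± 6.56 TPM (SD, n = 4) in Myc_VD LZ and 27.2 ± 17.7 TPM (SD, n = 3) in MBCs.

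Between the genotypes Cdkn1b differed by 0.67 on the log2(TPM + 1) scale (standard error 0.41, 95% interval -0.22 to 1.56), where changes of low genes appear smaller than they are, and it did not pass limma's test (adjusted p = 0.430). The exact permutation p of the difference in mean log2 values was 0.0286, the smallest that 4 against 4 libraries allow, and 0.3 after adjustment over the 21 tests of 7 genes in 3 comparisons. Of 12869 genes tested, 0.816% had all Myc_VD libraries above all Myc_WT libraries and 9.16% had them all below. Without Myc_VD mouse 6 the difference was 0.27 (adjusted p = 0.659), with the remaining 3 mice still above all Myc_WT mice. Mouse 6 also had the highest erythroid sum of the LZ libraries, 239 TPM against 31.2 to 106 TPM in Myc_WT LZ and 37.2 to 195 TPM in the other Myc_VD mice, and listed the most of the 6668 LZ genes at 0, 69 against 34 to 52 in the other LZ libraries. The part of these in its Cdkn1b value was not tested. The median of all genes tested was -0.31 in this comparison, relative to which Cdkn1b was higher by 0.97.

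In MBCs Cdkn1b was higher than in Myc_WT LZ by 2.13 on the log2 scale (standard error 0.55, 95% interval 0.88 to 3.38), which passed limma's adjusted threshold of 0.05 (adjusted p = 0.0457). Higher calls made up 4.17% of the 13245 genes tested, and all 3 MBC libraries lay above all 4 Myc_WT LZ libraries for 11.8% of genes. Within a mouse the rise was 0.95 in mouse 1, 3.21 in mouse 3 and 2.31 in mouse 4, so that 3 of 3 mice showed it. The call was lost with the mouse as a replicate block (log2 difference 2.16, adjusted p = 0.195), with a pseudocount of 0.1 (2.33, adjusted p = 0.0552), with no filter on low values (2.13, adjusted p = 0.0887) and without any of 6 of the 7 libraries, while the difference stayed between 1.66 and 2.74 with each library left out. Without the erythroid-rich MBC library of mouse 3 it was 1.66 (adjusted p = 0.0576), and without that of mouse 1 it was 2.74 (adjusted p = 0.0107). Against Myc_VD LZ, MBCs were higher by 1.47 (standard error 0.67, adjusted p = 0.264), so a difference between these 2 groups was not shown.

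Cdkn1a (ENSMUSG00000023067, chr17:29090976-29100727, plus strand) encodes p21, the inhibitor that p53 induces after DNA damage. In Myc_WT LZ it had 4.72 TPM in mouse 4, 5.6 in mouse 2, 9.23 in mouse 1 and 9.39 in mouse 3. Myc_VD LZ spanned a wider range, with 13.01 TPM in mouse 5, 8.38 in mouse 7, 1.35 in mouse 8 and a value listed at 0 in mouse 6, the library with the most Cdkn1b. MBCs had 0.63 TPM in mouse 1, 6.66 in mouse 4 and a value listed at 0 in mouse 3. The genotypes therefore overlapped from end to end, and 2 of the 3 MBC libraries were below all Myc_WT LZ libraries. Myc_VD LZ was 0.92 below Myc_WT LZ on the log2 scale, a difference of -0.92 with a standard error of 0.72 (limma, adjusted p = 0.539), and the interval of -2.50 to 0.65 leaves room for a change of either sign. The value was -0.24 without Myc_VD mouse 6, the library listed at 0, -1.51 without Myc_VD mouse 5 and -1.81 with a pseudocount of 0.1. It was -1.78 (standard error 0.73, adjusted p = 0.158) in MBCs against Myc_WT LZ and -0.85 (standard error 1.06, adjusted p = 0.704) in MBCs against Myc_VD LZ, where it ran from -1.72 to -0.25 with each library left out. In MBCs against Myc_WT LZ it was -3.15 with a pseudocount of 0.1 and -1.17 without the MBC library of mouse 3. Without the MBC library of mouse 4, Cdkn1a was called lower in MBCs than in Myc_WT LZ (log2 difference -2.64, adjusted p = 0.0133), on the 2 MBC libraries with the most genes listed at 0, whose part in that value was not tested.

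Cdkn1c (ENSMUSG00000037664, chr7:143458339-143461050, minus strand), the imprinted gene of p57, was above 0 in 5 of 11 libraries. Its highest values were 0.52 TPM in Myc_VD mouse 5 and 0.43 TPM in Myc_WT LZ mouse 2, and 2 libraries of each group were listed at 0. It was too low for limma's filter, which asked for an average of 1 TPM, and its exact permutation p was 0.429 or above in the 3 comparisons.

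**Figure D2:**
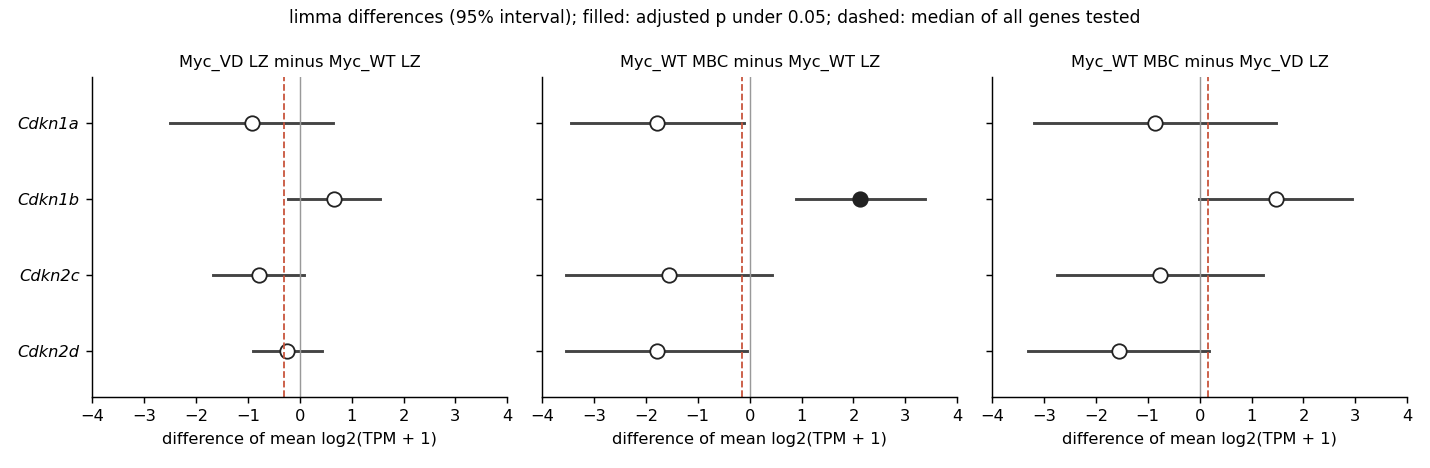
Differences in mean log2(TPM + 1) (x axis) of the 4 members that averaged 1 TPM or more (y axis) in 3 comparisons, from limma; bars are 95% intervals, filled points passed the adjusted threshold and dashed lines mark the median of all genes tested. Only Cdkn1b in MBCs against Myc_WT LZ is filled, at 2.13, and Cdkn1b lies to the right of 0 and the other 3 members to the left in every panel.

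Of the INK4 genes, Cdkn2c (ENSMUSG00000028551, chr4:109660876-109667189, minus strand) encodes p18, an inhibitor of CDK4 and CDK6 known for its part in plasma cell differentiation. It was the most abundant member in Myc_WT LZ, with 38.75, 30.58, 39.53 and 19.76 TPM in mice 1 to 4. Myc_VD LZ had 37.1 TPM in mouse 5 but 8.37, 18.99 and 15.46 TPM in mice 6 to 8, so 3 of 4 Myc_VD libraries were below the whole Myc_WT range and 1 was within it. MBCs scattered most, with 1.12 TPM in mouse 1, 43.11 in mouse 3 and 12.86 in mouse 4. The log2 difference between genotypes was -0.79 (standard error 0.40, 95% interval -1.67 to 0.08, adjusted p = 0.341), which relative to the median of all genes was -0.48 and without Myc_VD mouse 6 was -0.46. Plasma cell markers (Sdc1, Prdm1, Xbp1 and Jchain) summed to 114 to 206 TPM in Myc_VD LZ against 210 to 358 TPM in Myc_WT LZ and 175 to 343 TPM in MBCs, with none of the 3 tested between the genotypes called (Jchain at -1.09, adjusted p = 0.122), and their part in the Cdkn2c values was not tested. MBCs differed from Myc_WT LZ by -1.56 (standard error 0.88, adjusted p = 0.292), a value that ran from -2.56 without the MBC library of mouse 3 to -0.37 without that of mouse 1, and from Myc_VD LZ by -0.76 (standard error 0.91, adjusted p = 0.688), the latter turning to 0.42 without the MBC library of mouse 1.

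Cdkn2d (ENSMUSG00000096472, chr9:21288410-21291407, minus strand) encodes p19 of the INK4 family, which is distinct from p19ARF. Myc_WT LZ had 23.73, 25.89, 30.48 and 18.01 TPM, and Myc_VD LZ had 35.68 TPM in mouse 5 and 16.3, 18.82 and 15.38 TPM in mice 6 to 8. The genotypes overlapped and differed by -0.24 on the log2 scale (standard error 0.31, adjusted p = 0.720), which turned to 0.09 after median-ratio scaling and to 0.02 after quantile normalization, and which ran from -0.50 to -0.11 with each library left out. MBCs had 1.66 TPM in mouse 1, 3.54 in mouse 3 and 30.43 in mouse 4, a low pair and a library at the level of LZ B cells. MBCs differed from Myc_WT LZ by -1.79 (standard error 0.77, adjusted p = 0.174) and from Myc_VD LZ by -1.56 (standard error 0.80, adjusted p = 0.315). Without the MBC library of mouse 4 these were -2.85 (adjusted p = 0.00568) and -2.62 (adjusted p = 0.0430), again on the 2 MBC libraries with the most genes listed at 0, and without that of mouse 1 they were -1.07 and -0.83.

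Cdkn2b (ENSMUSG00000073802, chr4:89306299-89311039, minus strand), the gene of p15 and a known MIZ1 target that TGF-beta induces, was above 0 in all 4 Myc_WT LZ libraries, with 3.34 TPM in mouse 1 and 0.3, 0.66 and 0.34 TPM in the others. In Myc_VD LZ it was at 0.65 TPM in mouse 7 and listed at 0 in the other 3, and all 3 MBC libraries were listed at 0. MBCs thus lay below Myc_WT LZ without overlap, and Myc_VD LZ overlapped it through mouse 7 alone. Of the genes tested, 14.4% had all MBC libraries below Myc_WT LZ, but Cdkn2b was under limma's filter and is not among them. The exact permutation p was 0.0857 in both comparisons with Myc_WT LZ, or 0.3 adjusted over the 21 tests, and no fold is given against libraries at 0. At values this low, mostly under 1 TPM, libraries listed at 0 do not show that the RNA was missing.

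Cdkn2a (ENSMUSG00000044303, chr4:89274471-89294653, minus strand), whose 2 annotated transcripts give p16 and p19ARF and are pooled in a gene's TPM, lies 11645 bases from Cdkn2b on the same strand. It was above 0 in 3 of 11 libraries, at 0.37 TPM in Myc_WT LZ mouse 1, 0.2 TPM in Myc_VD mouse 8 and 0.25 TPM in the MBCs of mouse 1. No group was above another, with an exact permutation p of 0.714 or above in the 3 comparisons.

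Over the 4 members tested, 0 were called between the genotypes at an adjusted p under 0.05 in limma, against 0.0466% of all genes tested, and 0 had an unadjusted p under 0.05, against 16.9% of all genes. That count depends on the scaling, since Cdkn1b had an unadjusted p of 0.0459 with median-ratio scaling (log2 difference 0.96), 0.0453 with quantile normalization (0.91) and 0.0381 with ribosomal RNA and mitochondrial genes removed (1.03), with adjusted p from 0.373 to 0.414 in limma. It also depends on single libraries, since without Myc_VD mouse 5 Cdkn2c (-1.14) had an unadjusted p of 0.0075 and Cdkn1a (-1.51) of 0.0454, and without Myc_WT LZ mouse 4 Cdkn2c had one of 0.0376, with none called by limma after adjustment. In MBCs against Myc_WT LZ 1 member was called, Cdkn1b, against 9.2% of all genes, and 3 (Cdkn1a, Cdkn1b and Cdkn2d) had an unadjusted p under 0.05, against 27.1%. In MBCs against Myc_VD LZ 0 were called, against 3.88% of all genes, and 0 had an unadjusted p under 0.05, against 19.3%. Differences were below 0 for 3 of the 4 members in each comparison, against 73.7%, 55.3% and 43.9% of all genes in Myc_VD LZ against Myc_WT LZ, MBCs against Myc_WT LZ and MBCs against Myc_VD LZ. Both comparisons with Myc_WT LZ use the same 4 libraries, and both comparisons of MBCs the same 3.

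Shares within a library do not depend on how much TPM ribosomal RNA takes. Cdkn1b made up 4.65% to 10.0% of the summed TPM of the 7 genes in Myc_WT LZ, 5.83% to 15.3% in Myc_VD mice 5, 7 and 8 and 43.0% in Myc_VD mouse 6, and 70.8%, 48.9% and 35.7% in the MBCs of mice 1, 3 and 4. All 3 MBC shares were above all LZ shares except that of Myc_VD mouse 6, which was above the MBCs of mouse 4. Cdkn2c and Cdkn2d filled most of the rest, and the CIP/KIP share was 15.9% to 20.0% in Myc_WT LZ, 18.9% to 43.0% in Myc_VD LZ and 44.3% to 76.5% in MBCs. The sum of the 7 genes itself was 47.6 to 84.2 TPM in Myc_WT LZ, 38.3 to 91.7 TPM in Myc_VD LZ and 12.9, 91.3 and 77.7 TPM in MBCs, with no order among the groups. These shares were chosen after the values were seen and carry no test.

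**Figure D3:**
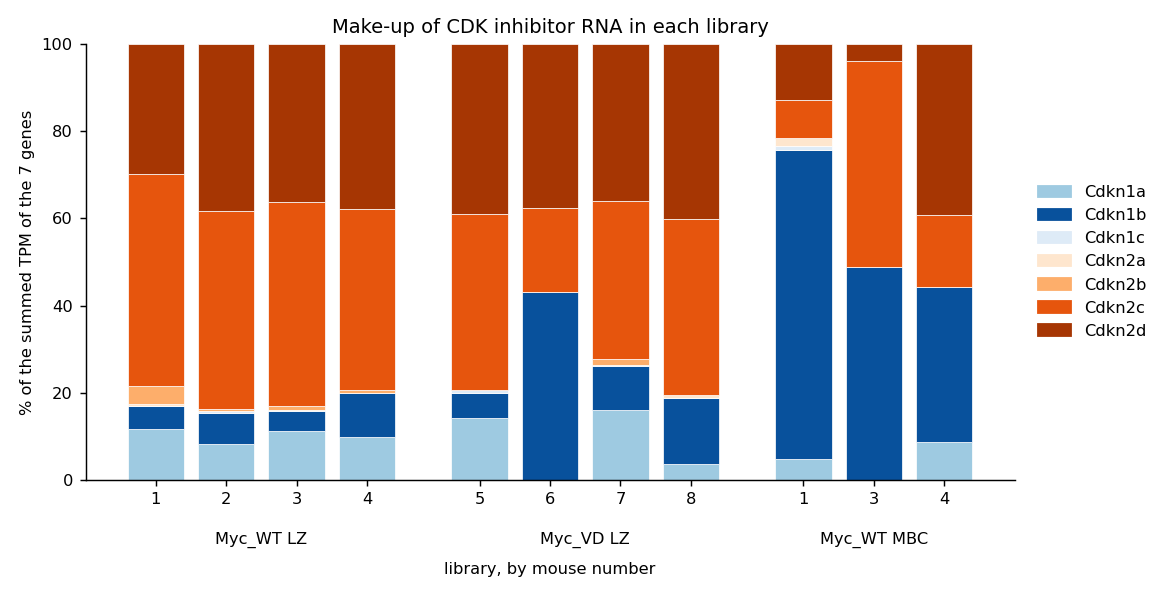
Share of each gene in the summed TPM of the 7 CDK inhibitor genes (y axis, %) in each of the 11 libraries (x axis, by mouse). The Cdkn1b share is at most 10.0% in Myc_WT LZ, 43.0% in Myc_VD mouse 6 and 35.7% to 70.8% in MBCs.

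**Figure D4:**
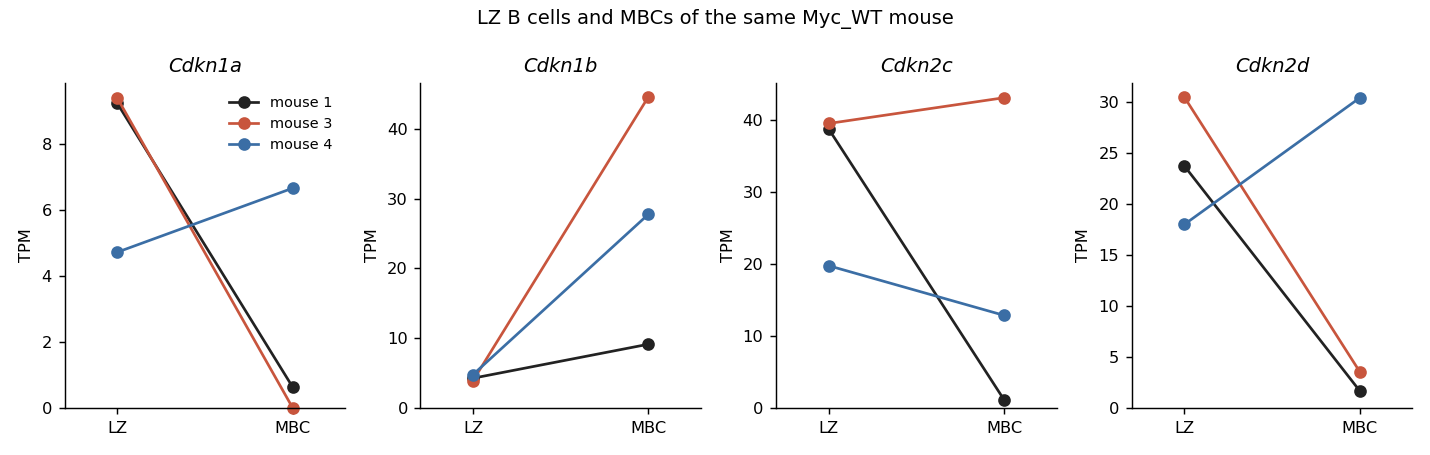
TPM (y axes, which differ between genes) of 4 CDK inhibitor genes in LZ B cells and MBCs (x axis) of the same Myc_WT mouse, 1 line for each of mice 1, 3 and 4. Cdkn1b is higher in MBCs in all 3 mice, whereas Cdkn1a and Cdkn2d are lower in mice 1 and 3 and higher in mouse 4.

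The same mice gave a split picture for the other members. Cdkn1a was lower in MBCs by 2.65 and 3.38 on the log2 scale in mice 1 and 3 and higher by 0.42 in mouse 4. Cdkn2d was likewise lower in mice 1 and 3, at -3.22 and -2.79, and higher in mouse 4, at 0.73. Cdkn2c differed by -4.23 in mouse 1 and by 0.12 and -0.58 in mice 3 and 4. The MBC library of mouse 4 was also the one most like LZ B cells across genes, with a Pearson correlation of 0.93 to 0.94 to Myc_WT LZ libraries against 0.85 to 0.87 for the other MBC libraries, and its part in these splits was not tested. Mouse 4 also differs from mice 1 and 3 in its title prefix. The splits of Cdkn1a and Cdkn2d cannot be told apart from whatever that prefix marks.

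Of 10 kinases and cyclins that the inhibitors act on, 3 were called lower in MBCs than in Myc_WT LZ and 1 higher, against 9.2% of all genes called in either direction, with a median log2 difference of -1.52 against -0.14 over all genes tested. In limma 8 of the 10 had an unadjusted p under 0.05 in this comparison, against 27.1% of all genes. Cdk4, the main target of INK4 proteins, was lower by 1.88 (188 TPM in Myc_WT LZ to 52.5 TPM in MBCs, adjusted p = 0.0174), with Cdk1, the kinase of mitosis (-3.47, adjusted p = 0.0358), and Ccnd3, the D cyclin of GC B cells (-1.61, adjusted p = 0.0416). Cdk1 was at 4.49 and 1.65 TPM in the MBCs of mice 1 and 3, the libraries with the most genes listed at 0, and at 45.65 TPM in those of mouse 4, against 71.8 to 128 TPM in Myc_WT LZ. Ccnd2, the D cyclin known to couple receptor signals to the cycle in B cells, was higher by 2.13 (5.74 to 26.8 TPM, adjusted p = 0.0223), the same size as Cdkn1b. Cdk6 (-1.31, adjusted p = 0.0909) and Cdk2 (-1.43, adjusted p = 0.0567) did not pass. Against Myc_VD LZ 0 of the 10 were called by limma (6 at an unadjusted p under 0.05, against 19.3% of all genes), and between the genotypes 0 of 9 tested (2 unadjusted, against 16.9%), where Cdk2 was at -0.89 (adjusted p = 0.275) and Ccne2 at -0.93 (adjusted p = 0.199).

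Set against these kinases, summed INK4 TPM were 0.238 to 0.330 of the summed TPM of Cdk4 and Cdk6 in Myc_WT LZ and 0.155 to 0.326 in Myc_VD LZ. In MBCs the ratio was 0.0511 in mouse 1, 1.36 in mouse 3 and 0.478 in mouse 4, below and above every LZ library. Of the pocket protein genes, Rb1 was called higher in MBCs than in Myc_WT LZ (2.31, adjusted p = 0.00562) and than in Myc_VD LZ (2.15, adjusted p = 0.0175), and Rbl1, the p107 gene, lower than in Myc_WT LZ (-2.70, adjusted p = 0.0226) but not than in Myc_VD LZ (-2.32, adjusted p = 0.0716). Rbl2, the p130 gene, did not pass (1.29, adjusted p = 0.134 against Myc_WT LZ). Rbl2 and the 5 E2F genes of this list of 8 were not called in any comparison. Of the 8, 1 was thus called higher and 1 lower against Myc_WT LZ, where 9.2% of all genes were called. Against Myc_VD LZ 1 was called, where 3.88% of all genes were, and 0 between the genotypes, where 0.0466% were. In limma 4 had an unadjusted p under 0.05 in each comparison of MBCs, against 27.1% and 19.3% of all genes.

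p27, p21 and p57 are removed by ubiquitin ligases. Of 11 ligase genes, 2 were called lower in each comparison of MBCs, where 9.2% (Myc_WT LZ) and 3.88% (Myc_VD LZ) of all genes were called in either direction. In limma 5 had an unadjusted p under 0.05 against Myc_WT LZ and 4 against Myc_VD LZ, where 27.1% and 19.3% of all genes did. Cks1b, the cofactor with which SKP2 binds p27, was called lower in MBCs than in Myc_WT LZ (-4.69, adjusted p = 0.0125) and than in Myc_VD LZ (-3.53, adjusted p = 0.0373). Within a mouse Cks1b differed by -5.61 and -6.80 in mice 1 and 3, whose MBCs had the most genes listed at 0, and by -1.66 in mouse 4. Dtl, the CDT2 receptor that marks p21 in S phase, was lower by 2.93 (adjusted p = 0.00390) and by 2.60 (adjusted p = 0.0176). Skp2 did not pass (-2.86, adjusted p = 0.0552 against Myc_WT LZ). Between the genotypes limma called 0 of 11 (2 at an unadjusted p under 0.05, against 16.9% of all genes), with Cks1b at -1.16 (68.0 to 160 TPM in Myc_WT LZ, 38.2 to 61.9 TPM in Myc_VD LZ, adjusted p = 0.114). Rnf123 and Ubac1, the KPC ligase of p27, were not called in any comparison.

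Summed Skp2 and Cks1b TPM were 88.3 to 186 in Myc_WT LZ, 49.2 to 89.8 in Myc_VD LZ and 3.26, 0.5 and 34.3 in the MBCs of mice 1, 3 and 4. Per TPM of this sum, Cdkn1b was at 0.021 to 0.0541 in Myc_WT LZ, 0.066 to 0.207 in Myc_VD LZ and 2.80, 89.2 and 0.809 in MBCs. On this ratio no library of any group overlapped another group, with Myc_VD LZ between Myc_WT LZ and MBCs. The ratio was chosen after the values were seen and has no test, and in the MBCs of mice 1 and 3 its denominator is close to 0.

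**Figure D5:**
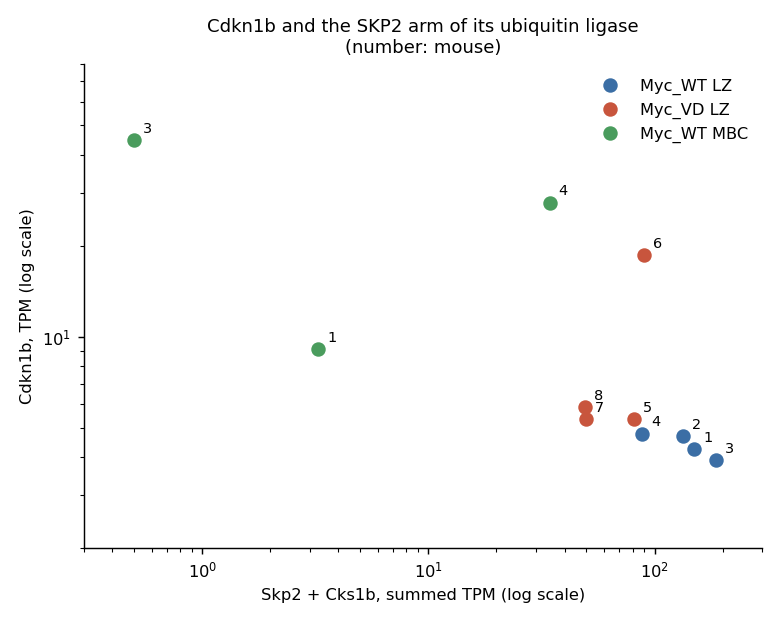
Cdkn1b TPM (y axis, log scale) against the summed TPM of Skp2 and Cks1b (x axis, log scale) in the 11 libraries, with mouse numbers. The Myc_WT LZ libraries sit at the lower right at 3.92 to 4.78 TPM of Cdkn1b, the 3 MBC libraries lie to the left of all LZ libraries, and Myc_VD mouse 6 lies above the other LZ libraries.

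The factors known to act on the inhibitor genes were measured as RNA only. Zbtb17 itself was low, at 3.94 ± 1.17 TPM in Myc_WT LZ and 3.66 ± 2.22 TPM in Myc_VD LZ (SD, n = 4 each) and 5.01 ± 3.67 TPM (SD, n = 3) in MBCs, and was not called in any comparison. Of 10 activators 1 was called in each comparison of MBCs, against 9.2% and 3.88% of all genes: Ep300, a coactivator of MIZ1, was higher in MBCs than in Myc_WT LZ by 1.12 (adjusted p = 0.0275) and than in Myc_VD LZ by 1.44 (adjusted p = 0.0442). Foxo1, a known activator of Cdkn1b in lymphocytes, was at 0.08 (adjusted p = 0.879) and Trp53, the activator of Cdkn1a, at 0.42 (adjusted p = 0.342) in MBCs against Myc_WT LZ. Foxo3, another FOXO factor known to activate Cdkn1b and named here after its values were seen, was at 1.12 (5.26 to 12.6 TPM, adjusted p = 0.127). Of the repressors tested, 10 of 11, 1 was called lower and 1 higher in each comparison of MBCs, against 9.2% and 3.88% of all genes called. In limma 8 had an unadjusted p under 0.05 against Myc_WT LZ and 5 against Myc_VD LZ, where 27.1% and 19.3% of all genes did. Bcl6, the GC B cell factor known to repress Cdkn1a through MIZ1, was lower in MBCs by 2.20 than in Myc_WT LZ (adjusted p = 0.00594) and by 2.16 than in Myc_VD LZ (adjusted p = 0.00837). Cbx7, a Polycomb protein known to silence Cdkn2a, was higher by 2.40 (adjusted p = 0.0235) and 2.56 (adjusted p = 0.0304). Myc was at 65.2 TPM in MBCs and 36.0 TPM in Myc_WT LZ and did not pass the test (0.81, adjusted p = 0.139), and Ezh2 was at -0.92 (adjusted p = 0.0836). Between the genotypes 0 of the 10 activators and 0 of the 10 repressors tested were called by limma (0 and 2 at an unadjusted p under 0.05, against 16.9% of all genes), with Bcl6 at -0.04 (adjusted p = 0.936).

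Markers of proliferation and of some other cell types differed between MBCs and LZ libraries, which does not show that such cells were present. Proliferation markers (Mki67, Top2a and Pcna, all called lower in MBCs than in Myc_WT LZ) summed to 758 to 1381 TPM in Myc_WT LZ, 718 to 1325 TPM in Myc_VD LZ and 255 to 311 TPM in MBCs. Naive follicular markers (Ighd and Fcer2a) were called higher, 2 of 2, and summed to 568 to 688 TPM in MBCs against 188 to 258 TPM in LZ libraries, although MBCs were gated as IgD-. Myeloid markers summed to 16.1 to 163 TPM in MBCs against at most 12.4 TPM in LZ, with Csf1r and Itgam called and Lyz2 not called. T cell markers reached at most 12.5 TPM, stromal ones 0.06 TPM and megakaryocyte ones 8.34 TPM, with none called. Pecam1 was called as well, but the other endothelial markers (Cdh5, Kdr and Emcn) were at or near 0. Within MBCs, Cdkn1b was highest in mouse 3, the erythroid-rich library, next in mouse 4 and lowest in mouse 1, and the erythroid sums of mice 4 and 1 were 21.8 and 4.74 TPM, both below every LZ library. The part of any other cell types in the Cdkn1b difference was not tested.

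The likeness of each member to other genes was taken over the 11 libraries, which share mice, cell types and differences in RNA composition, and is given as a description of 10113 protein-coding genes. Cdkn1b was most like Nlk (Pearson r = 0.93), Myof (0.91) and Syt11 (0.90), all with their highest mean in MBCs, such as Nlk at 17.0, 22.0 and 47.5 TPM in Myc_WT LZ, Myc_VD LZ and MBCs. By Spearman's rho the closest were mt-Co1 (0.95), Mcts2 (0.94) and mt-Nd5 (0.93), so that none of the 3 neighbours of Cdkn1b was shared by both measures. The mitochondrial mt-Co1 averaged 4007, 6211 and 11041 TPM in Myc_WT LZ, Myc_VD LZ and MBCs, and mt-Nd5 637, 1080 and 1695 TPM. Both thus rose in the same order of groups as Cdkn1b, and the part of RNA composition in this was not tested. Cdkn1a was most like Ppm1m (r = 0.95), Arl16 (0.95) and Exosc4 (0.93), Cdkn2c like U2surp (0.97), Utp18 (0.96) and Tmem129 (0.96), and Cdkn2d like Bloc1s1 (0.97), Zfp628 (0.97) and Brap (0.97). By Spearman's rho, Ppm1m was tied with Stambp and Atf5 as closest to Cdkn1a (0.94 each), whereas none of the 3 closest to Cdkn2c (Zbtb5, Jpt1 and Baz1b) or to Cdkn2d (Ap3s1, Rexo2 and Stam) was among those by Pearson. Among the members, Cdkn1a went with Cdkn2d (r = 0.76, rho = 0.87) and against Cdkn1b (r = -0.64, rho = -0.66) over the same 11 libraries.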

How the data were processed

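Each library was RNA of sorted splenic B cells of 1 mouse, prepared with a Nugen cDNA kit. The submitters' processing notes name STAR 2.5.2a, RSEM 1.3.0, DESeq2 1.18.1 and GRCm38. The authors deposited TPM (estimated reads per transcript length, scaled to a fixed total per library) from strand-aware RSEM, to 2 decimals; the annotation release is not given in the sources used here. Depth cannot be read from TPM, so no counting error is given. Symbols and coordinates came from GENCODE M21, which names 48349 of the genes and leaves 446 without a symbol, and promoter windows from RefSeq. Protein sequences were not used here.

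Groups were compared 2 at a time with limma 3.58.1 (R 4.3.3; lmFit, eBayes with trend) on log2(TPM + 1), keeping genes that averaged 1 TPM or more in the libraries fitted, two-sided with Benjamini-Hochberg adjustment at 0.05, and members also by two-sided exact permutation of the difference in mean log2 values (numpy 2.4.6, pandas 2.3.3). The limma fit was tested on simulated data. Figures were drawn with matplotlib 3.10.9.

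The members, lists and tests were chosen with earlier results of these data known. Some marker genes are not reported here and were left out of the marker sums. The genes named are the members, marker genes, list genes past the adjusted threshold, a set of main regulators, and the 3 protein-coding genes most correlated with each member. List genes outside this rule are named too, with their values known: Foxo3, Ccne2, Rbl2, Rnf123, Ubac1, Bax, Ccng1 and Mdm2. Jchain values are likewise given though it passed no threshold. Shares, ratios, and counts of CCAAT and GGGCGG were added after the values were seen. By their labels, MBC and LZ libraries that share a number are of 1 mouse, although across genes the r of their deviations from group means was 0.0052, 0.0114 and -0.047 in mice 1, 3 and 4. Alternatives were other pseudocounts, filters, scalings and fits, removal of 356 ribosomal RNA genes and mitochondrial genes, the replicate block and each library left out.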

Additional observations from a re-analysis of the deposited data

Results flagged for a closer look

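In groups of 4 libraries, 6 values in 14 groups lay far from the other 3 by a gap test at the 95% level, a test that chance alone passes in about 5% of groups. In 3 of them the other libraries are all listed at 0, so that the gap equals the range by construction, and the chance rate says nothing about those. Cdkn1b in Myc_VD mouse 6 was at 18.63 TPM, with a gap of 0.959 of the range. Cdkn2d in Myc_VD mouse 5 was at 35.68 TPM, with a gap of 0.831 of the range. Cdkn2b in Myc_WT LZ mouse 1 was at 3.34 TPM, with a gap of 0.882, and in Myc_VD mouse 7 at 0.65 TPM beside 3 libraries listed at 0. Cdkn2a was at 0.37 TPM in Myc_WT LZ mouse 1 and at 0.2 TPM in Myc_VD mouse 8, each the only library of its group above 0. The 3 MBC libraries were too few for this test.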

How the results depend on the processing

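The call of Cdkn1b in MBCs against Myc_WT LZ was the only adjusted call of a CDK inhibitor gene. The count of members called was 0 with a pseudocount of 0.1, 0 with no filter on low values and 0 in the paired fit with the mouse as a replicate block, where Cdkn1b had a difference of 2.16 (adjusted p = 0.195), and it ran from 0 to 2 with each library left out. In MBCs against Myc_VD LZ it ran from 0 to 1 with each library left out, and between the genotypes it was 0 in every setting run. Cdkn2d between the genotypes turned to 0.092 with median-ratio scaling, 0.022 with quantile normalization and 0.096 with ribosomal RNA and mitochondrial genes removed, and Cdkn2c in MBCs against Myc_VD LZ ran from -1.77 to 0.42 with each library left out, the latter without the MBC library of mouse 1. Of the members' log2 differences, 78 with a library left out kept their direction and side of the threshold, while 6 lost the call, 3 gained one and 1 reversed. Under other settings 93 kept both, 3 lost the call and 3 reversed. The block changed no other call of a member. Median-ratio scaling took the median of all genes from -0.31 to -0.01 between the genotypes, where Cdkn1b stayed higher (0.96, unadjusted p = 0.0459, adjusted p = 0.414).

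Over all genes, 6 were called between the genotypes, but 0 with a pseudocount of 0.1, no filter, median-ratio scaling or all 3 groups in 1 fit, 1 without ribosomal RNA and mitochondrial genes, 15 when genes had to average 5 TPM, and 0 (without Myc_WT LZ mouse 2 or mouse 4) to 254 (without Myc_VD mouse 5) with each library left out. In MBCs against Myc_WT LZ 1219 were called, but 608 with no filter, 248 with the block and 342 (without Myc_WT LZ mouse 2) to 2754 (without the MBCs of mouse 4) with each library left out. Against Myc_VD LZ 509 were called, 331 of them higher, but 202 with no filter, 284 without a trend, 1578 with all groups in 1 fit, 203 to 731 with each library left out, and with 230 of 532 higher under median-ratio scaling, 272 of 645 under quantile normalization and 196 of 511 without ribosomal RNA and mitochondrial genes. The causes were not tested. TPM leave the precision of single values unknown, and values under 1 TPM and libraries listed at 0 show no absence.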

Other observations

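The p53 axis, which Cdkn2a feeds through p19ARF and Cdkn1a reports on, was not called for any of its 8 tested genes in any comparison by limma, with 2, 2 and 1 of them at an unadjusted p under 0.05 in Myc_VD LZ against Myc_WT LZ, MBCs against Myc_WT LZ and MBCs against Myc_VD LZ, where 16.9%, 27.1% and 19.3% of all genes were, so that the counts lie near those of all genes. Between the genotypes these were Bax, a pro-apoptotic p53 target, at 47.2 TPM in Myc_WT LZ and 21.7 TPM in Myc_VD LZ (log2 difference -1.07, adjusted p = 0.108), and Ccng1, a p53-induced cyclin, at 52.9 and 34.2 TPM (-0.69, adjusted p = 0.278). Trp53 differed by -0.03 (adjusted p = 0.968 from limma) and Mdm2, its ubiquitin ligase, by -0.31, the median of all genes. The median of the 8 genes was -0.27.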
